A study of Eriocheir sinensis with 9 samples.

Results

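Transcript isoforms of the crab eyestalk that stood lowest at 27 °C, below both the cooler 22 °C and the warmer 32 °C, were chosen from abundance values measured by RNA sequencing. Abundance is in FPKM, a fragment count scaled to transcript length and to the total of mapped fragments in the library. An isoform with at least 1 FPKM in 3 or more of 9 libraries qualified when its mean log2(FPKM + 1) at 27 °C was at least 1 below that at 22 °C and at least 1 below that at 32 °C. Each of its 27 °C values also had to lie below all 6 values of the other temperatures. Of 267789 isoforms in the table, 101114 passed the abundance minimum and 489 met the rule. The change from 22 to 27 °C is called the lower step here and that from 27 to 32 °C the upper step. The 200 isoforms with the largest upper minus lower step are described. Their depth and separation at 27 °C were thus set by the choice and are given as a description.

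The animal is the Chinese mitten crab, Eriocheir sinensis, taken between molts and labelled wild type. Crabs were held at 25 °C before assignment to temperature groups of 3 parallel replicates with 16 crabs each. Groups of 22, 27 and 32 °C, with 3 libraries each, were analysed here. All 9 libraries carry the label untreated, so the temperature was read from the library titles, and the series title speaks of normal and high temperature without naming which is normal. The labels give neither the length of exposure nor whether a library holds 1 crab or a pool, so p-values reflect only how these libraries scatter, which can be technical scatter. The design text names muscle while every sample label names eyestalk. The identifiers carry no gene names, so the tissue could not be checked against marker transcripts.

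The eyestalk of a decapod carries the compound eye and the optic ganglia. It also holds the X-organ with its sinus gland, whose peptide hormones restrain molting and act on blood sugar, pigment movement and reproduction. A crab's body temperature follows the water, so its tissues meet the temperatures of the tanks directly. A single gene can give several isoforms through alternative start sites, splicing and ends, and a measured isoform can change while the sum over its gene stays level. A fall of an isoform is therefore not a fall of a gene, and the isoforms here are described by rank, level and shape, with 4 given by identifier.

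Summed FPKM ran from 1704917 to 2227273 per library, and 78012 to 88113 isoforms reached 1 FPKM. The number of reads is unknown. Replicate 1 at 32 °C stood apart from its group: across the isoforms tested its log2(FPKM + 1) values correlated at 0.731 and 0.738 with the other 32 °C libraries and at 0.754 to 0.761 with those of 27 °C. Results that rest on it are given with and without it.

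The same rule was turned to each temperature in turn to place the pattern among others. It found 1225 isoforms lowest at 22 °C, 489 lowest at 27 °C and 458 lowest at 32 °C. It found 1410 isoforms highest at 22 °C, 487 highest at 27 °C and 732 highest at 32 °C. Isoforms lowest at 27 °C were thus about as many as those highest there, 0.484% and 0.482% of the isoforms tested. After dividing libraries by median-of-ratios factors, which equalize the typical isoform between libraries, 540 were lowest and 400 highest at 27 °C. The isoforms lowest at 27 °C averaged a median of 5.17 FPKM over the 9 libraries, and those highest at 27 °C averaged 2.84 FPKM.

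The limit of 200 cut through a continuous range. The last isoform inside had an upper minus lower step of 3.81 on the log2(FPKM + 1) scale. Its values were 12.09, 7.52 and 3.31 FPKM in the 22 °C libraries, 0.43, 0.24 and 0.71 FPKM in the 27 °C libraries, and 3.03, 4.89 and 1.24 FPKM in the 32 °C libraries. The first isoform outside also had a value of 3.81, with 3.26, 4.98 and 2.55 FPKM in the 22 °C libraries, 0.33, 0.15 and 0.5 FPKM in the 27 °C libraries, and 2.91, 23.12 and 0.69 FPKM in the 32 °C libraries. The 289 isoforms outside had group means with a median of 4.78 FPKM for 22 °C, 0.99 FPKM for 27 °C and 4.57 FPKM for 32 °C. The limit favoured the more abundant isoforms, since a change of a given fold is larger on this scale when it starts high.

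Among the 200, the median of the group means was 12.1 FPKM at 22 °C, 0.86 FPKM at 27 °C and 11.4 FPKM at 32 °C. Group means ran from 1.70 to 1960 FPKM at 22 °C, from 0 to 203 FPKM at 27 °C and from 1.39 to 753 FPKM at 32 °C. The change at 27 °C relative to 22 °C had a median of -2.63 on the log2(FPKM + 1) scale and ran from -8.30 to -1.22. The change at 32 °C relative to 27 °C had a median of 2.34 and ran from 1.05 to 9.17. With 0.1 added to FPKM in place of 1, the medians were -4.44 and 4.29, so these sizes depend on the constant added. Taken over all 9 libraries, the isoforms averaged a median of 8.18 FPKM, against 2.53 FPKM for all isoforms tested. None was among the 100 most abundant isoforms of the table, and the most abundant of them ranked 392.

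**Figure D1:**
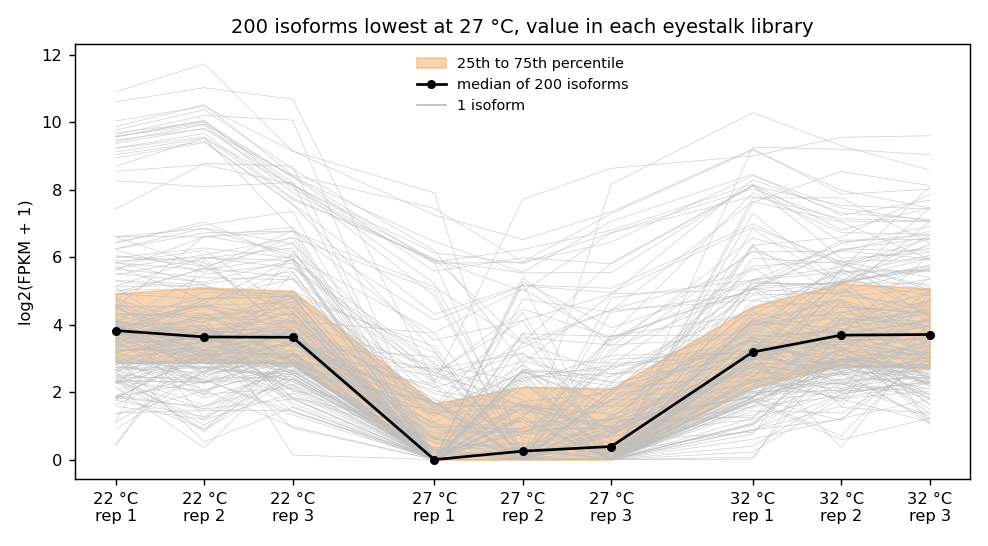
Log2(FPKM + 1) of each of the 200 isoforms (grey lines) in the 9 libraries, ordered by temperature and replicate, with the median (black) and the 25th to 75th percentile (orange). The median FPKM was 11.3 to 13.2 in the 22 °C libraries, 0 to 0.31 at 27 °C and 8.12 to 12.1 at 32 °C; a distinct upper band of lines starts high at 22 °C.

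The same 3 levels were seen library by library. In bulk tissue, fewer cells of a type and less RNA per cell cannot be told apart. The median over the 200 isoforms was 13.2, 11.4 and 11.3 FPKM in replicates 1 to 3 at 22 °C. It was 0, 0.19 and 0.31 FPKM in those at 27 °C, and 8.12, 11.9 and 12.1 FPKM in those at 32 °C. The 32 °C library with the lowest median was the replicate that stood apart.

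For many of these isoforms the low state was a listing at 0. At 27 °C, 52 isoforms were listed at 0 in all 3 libraries, 42 in 2 libraries, 50 in 1 library and 56 in none. By library, 105, 94 and 91 of the 200 stood at 0 in replicates 1, 2 and 3 at 27 °C. Over all isoforms tested, 7.66 to 8.37% stood at 0 in a 27 °C library. By the rule none of the 200 could be at 0 at 22 or 32 °C. A listed 0 can mean no transcript or an estimate that failed, so no ratio of FPKM is given against a group at 0. The log2(FPKM + 1) changes given above do include such groups, also at their extremes of -8.30 and 9.17.

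The isoforms at 0 throughout 27 °C were at the median less abundant than those never at 0, although isoform_44559 and isoform_33179 averaged at least 100 FPKM. The median of their group means was 7.67 FPKM at 22 °C, 0 at 27 °C and 6.21 FPKM at 32 °C. For comparison, the 56 isoforms never at 0 had group means with a median of 20.7 FPKM at 22 °C, 3.91 FPKM at 27 °C and 27.0 FPKM at 32 °C. In these 56, the 27 °C mean was a median of 0.125 times the 22 °C mean, with a range of 0.0228 to 0.454 times. The 32 °C mean was a median of 5.65 times the 27 °C mean, with a range of 2.28 to 68.9 times.

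The distance between temperatures was narrow for some isoforms and wide for others. In the 148 isoforms with any value above 0 at 27 °C, the lowest of the 6 values at 22 and 32 °C was a median of 1.54 times the highest value at 27 °C. That ratio was at least 2 in 51 isoforms and under 1.1 in 21, and it ran from 1.0 to 213. All 6 values at 22 and 32 °C reached 1 FPKM in 177 of the 200 isoforms, and the lowest single one was 0.01 FPKM. Replicates of these isoforms varied more on the log2(FPKM + 1) scale than those of all isoforms tested. The sets were not matched for abundance, with medians of 8.18 and 2.53 FPKM over the 9 libraries. The median SD within a temperature came to 0.568 for 22 °C, 0.542 for 27 °C and 0.687 for 32 °C on the log2(FPKM + 1) scale, against 0.343, 0.364 and 0.394 over all isoforms tested.

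Isoform_44559 had the largest upper minus lower step. It stood at 170.94, 438.23 and 414.77 FPKM in the 22 °C libraries, was at 0 in every 27 °C library, and stood at 612.88, 586.83 and 524.99 FPKM in the 32 °C libraries. All 3 libraries at 32 °C lay above all 3 at 22 °C. For 32 against 22 °C its log2(FPKM + 1) difference was 0.87 with a standard error of 0.346 (adjusted p = 0.267, limma, Benjamini-Hochberg over all isoforms), which did not pass. With only the 32 and 22 °C libraries fitted, the adjusted p was 0.359 (limma).

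Isoform_33179 came second by the same measure. It stood at 306.82, 271.2 and 296.27 FPKM in the 22 °C libraries, was at 0 in every 27 °C library, and stood at 215.33, 215.79 and 84.13 FPKM in the 32 °C libraries. Here all 3 libraries at 32 °C lay below all 3 at 22 °C. The difference of 32 against 22 °C was -0.88 with a standard error of 0.353 on the log2(FPKM + 1) scale and did not pass (adjusted p = 0.268, limma). With only the 32 and 22 °C libraries fitted, the adjusted p was 0.362 (limma).

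Isoform_85158 was the most abundant by its mean over 22 and 32 °C. Its values were 1912.66, 3402.06 and 564.84 FPKM in the 22 °C libraries, 239.21, 0 and 286.62 FPKM in the 27 °C libraries, and 1245.14, 630.97 and 381.58 FPKM in the 32 °C libraries. The libraries at 32 °C averaged 753 ± 444 FPKM and those at 22 °C 1960 ± 1419 FPKM (n = 3 each, SD), and their ranges overlapped. The difference was -1.20 with a standard error of 2.01 on the log2(FPKM + 1) scale (adjusted p = 0.817, limma). The fit pools the spread of all 3 temperatures, so the 27 °C library at 0 enters this error, and without it the adjusted p was 0.444 (limma).

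Isoform_22386 was the next most abundant. It stood at 1554.02, 2083.22 and 1641.9 FPKM in the 22 °C libraries, at 3.9, 209.8 and 396.23 FPKM in the 27 °C libraries, and at 512.41, 750.94 and 774.92 FPKM in the 32 °C libraries. The 3 temperatures did not overlap, and the 27 °C libraries differed widely among themselves. The 32 °C libraries averaged 679 ± 145 FPKM and the 22 °C libraries 1760 ± 284 FPKM (n = 3 each, SD), a log2(FPKM + 1) difference of -1.38 with a standard error of 1.42 (adjusted p = 0.678, limma). The 27 °C library at 3.9 FPKM enters this error too: without that replicate 1 the adjusted p was 0.0822, and 0.0779 with only the 32 and 22 °C libraries fitted (limma).

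**Figure D2:**
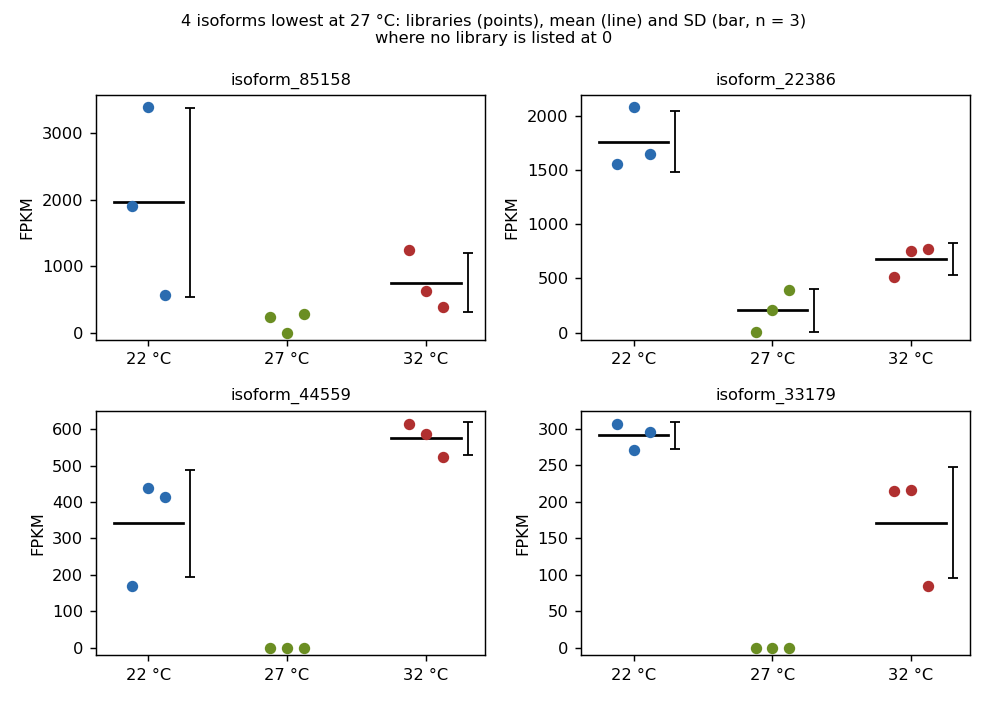
FPKM of the 4 isoforms given by identifier at 22, 27 and 32 °C; points are libraries (replicates 1 to 3 from left to right), lines are means and bars are SD (n = 3), drawn only where no library is listed at 0. Isoform_44559 and isoform_33179 are at 0 in every 27 °C library, and isoform_44559 alone of the 4 has its 32 °C libraries above its 22 °C libraries.

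Several others of the 10 isoforms with the largest upper minus lower step had the same near-empty state at 27 °C. The isoform ranked 4 stood at 86.54, 122.82 and 163.73 FPKM in the 22 °C libraries, at 0 in every 27 °C library, and at 18.5, 48.97 and 270.01 FPKM in the 32 °C libraries. The isoform ranked 7 stood at 43.56, 61.76 and 76.33 FPKM in the 22 °C libraries, at 0 in every 27 °C library, and at 113.98, 34.79 and 100.25 FPKM in the 32 °C libraries. In both, the values at 32 °C ranged around those at 22 °C. The isoform ranked 3 stood at 791.09, 1177.61 and 1068.05 FPKM in the 22 °C libraries, at 0, 36.13 and 0 FPKM in the 27 °C libraries, and at 196, 371.75 and 277.62 FPKM in the 32 °C libraries. Its 32 °C libraries all lay below its 22 °C libraries.

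The most abundant of the 200 shared a profile in detail. An average of at least 100 FPKM over the 9 libraries was reached by 22 isoforms. Of these, 17 shared the order of their 22 °C libraries and the highest library at 32 °C, a grouping made after the values were seen. At 22 °C replicate 2 was highest and replicate 3 lowest. At 32 °C replicate 1 was highest, with replicates 2 and 3 in either order. Together this is called the shared order here. This order was held by 77.3% of the 22 abundant isoforms, by 12.0% of the 200, by 14.1% of the 1588 tested isoforms of at least 100 FPKM and by 4.38% of all tested isoforms. The order remained in 17 of the 22 after rescaling to TPM, median-of-ratios scaling or quantile normalization. These settings rescale each library as a whole, and the 17 were chosen for the order, so this does not test it.

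The levels of these 17 isoforms differed from each other within a library. They ran from 414.6 to 1913 FPKM in replicate 1 at 22 °C and from 117.5 to 1245 FPKM in replicate 1 at 32 °C. Their median was 710, 977 and 279 FPKM in replicates 1 to 3 at 22 °C. It was 59.2, 35.1 and 56.2 FPKM in the 27 °C libraries, and 278, 133 and 134 FPKM in the 32 °C libraries. Replicate 3 at 22 °C held a median of 31.6% of the mean of the other 22 °C libraries, with a range of 19.5 to 45.8%. Replicate 1 at 32 °C held a median of 2.13 times the mean of the other 32 °C libraries, with a range of 1.54 to 4.24 times. In this group of isoforms, libraries of the same temperature thus stood several-fold apart.

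As an example, the isoform ranked 9 by its mean over 22 and 32 °C stood at 756.14, 1067.71 and 261.71 FPKM in the 22 °C libraries, at 55.56, 56.47 and 86.18 FPKM in the 27 °C libraries, and at 340.38, 175 and 133.47 FPKM in the 32 °C libraries. The isoform ranked 10 stood at 767.49, 985.28 and 331.33 FPKM in the 22 °C libraries, at 46.96, 62.22 and 54.86 FPKM in the 27 °C libraries, and at 274.79, 184.77 and 171.09 FPKM in the 32 °C libraries. Neither was listed at 0 in any library. Isoform_85158 also belonged to the 17, whereas isoform_22386, isoform_44559 and isoform_33179 did not.

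**Figure D3:**
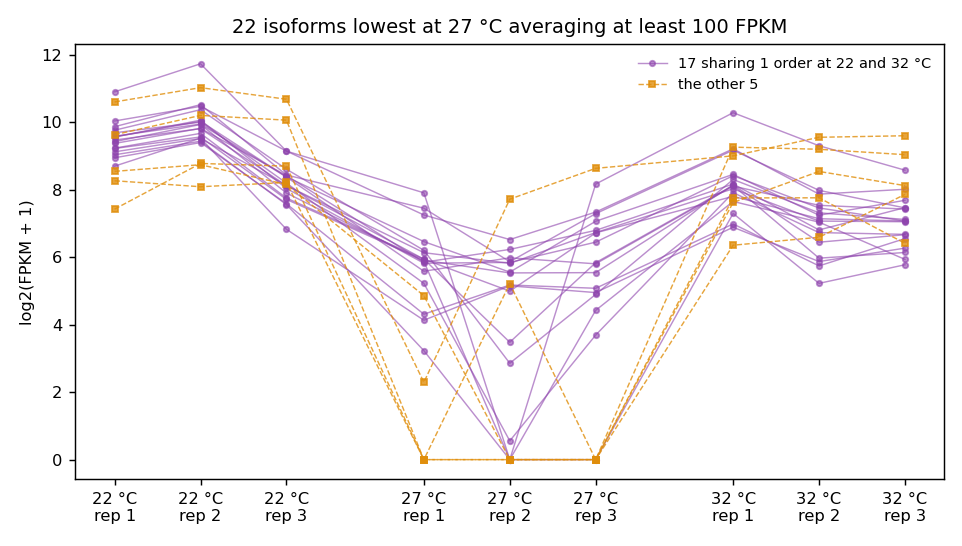
Log2(FPKM + 1) in the 9 libraries of the 22 isoforms averaging at least 100 FPKM; purple lines are the 17 with 1 shared order of libraries and orange dashed lines are the other 5. The purple lines run nearly parallel at 22 and 32 °C, with a median of 279 FPKM in replicate 3 at 22 °C against 977 FPKM in replicate 2, and spread out at 27 °C.

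Over the 136 pairs of these 17 isoforms, log2(FPKM + 1) across the 9 libraries correlated at a median of 0.937, with a range of 0.603 to 0.996. These values share the libraries and the choice of a low 27 °C. With each temperature's mean removed, which takes the temperature pattern out, deviations at 22 and 32 °C still correlated at a median of 0.951 over 6 libraries, and at 0.708 or more in every pair. With the 27 °C libraries added, the median was 0.754 and the lowest pair stood at -0.001, so the deviations at 27 °C were less alike. The mean correlation of such deviations over all pairs was 0.0222 among the 200, 0.0426 among the 183 outside the group and 0.0104 among all isoforms tested. Over the 200 as a whole the mean was thus near 0. The order of libraries chose these 17, so their likeness is a description.

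Isoforms outside the 200 had this profile too. A correlation of at least 0.95 with the mean log2(FPKM + 1) profile of the 17 was found in 23 tested isoforms. Of these, 11 were among the 17, 0 were others of the 200, 1 met the rule beyond the limit of 200, and 11 did not meet the rule. Of these 11, 6 averaged at least 100 FPKM. In all 6 a 27 °C value reached a value at another temperature, and in 3 of them the step from 27 to 32 °C was also under 1. The submitters' processing notes name RSEM, which shares reads out between similar isoforms. Whether the 17 entries share sequence or a gene was not tested, so they may not be 17 independent measurements.

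Many of the 17 carried isoform numbers from a limited range. Of the 17, 12 lay between 60000 and 72000 and 5 outside, a range chosen after the numbers were seen that held 7.87% of tested isoforms of at least 100 FPKM. The other 183 had 15 in that range. Numbers below 90000 were carried by 77.5% of the 200, against 41.5% of all tested isoforms. By abundance the shares were 71.4% of the 200 against 42.8% of tested isoforms at 2 to 10 FPKM, 83.3% against 67.0% at 10 to 50 FPKM, and 89.3% against 81.2% at 50 FPKM or more. The numbers run up to 390021, and no source used here gives what sets their order.

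Together the 200 isoforms held a small part of the measured abundance. Of summed FPKM they held 0.910% ± 0.310 in the 22 °C libraries, 0.0860% ± 0.0224 in those of 27 °C and 0.459% ± 0.0217 in those of 32 °C (n = 3 each, SD). In the single libraries the share was 0.876, 1.24 and 0.618% at 22 °C, 0.0798, 0.0673 and 0.111% at 27 °C, and 0.481, 0.457 and 0.438% at 32 °C. The low values at 27 °C follow from the choice, whereas the order of 32 and 22 °C does not. All 3 libraries at 32 °C lay below all 3 at 22 °C.

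The 17 abundant isoforms carried most of that difference. They held 0.193% ± 0.0825 of summed FPKM at 32 °C and 0.573% ± 0.309 at 22 °C (n = 3 each, SD), with overlapping libraries. The other 183 held 0.266% ± 0.0622 at 32 °C and 0.337% ± 0.0435 at 22 °C (n = 3 each, SD), a difference close to the SD. In replicate 1 at 32 °C the 17 held 0.287% and the other 183 held 0.194%. In replicates 2 and 3 at 32 °C the 17 held 0.158 and 0.133% and the other 183 held 0.299 and 0.305%. The near-equal totals at 32 °C thus had different makeups.

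**Figure D4:**
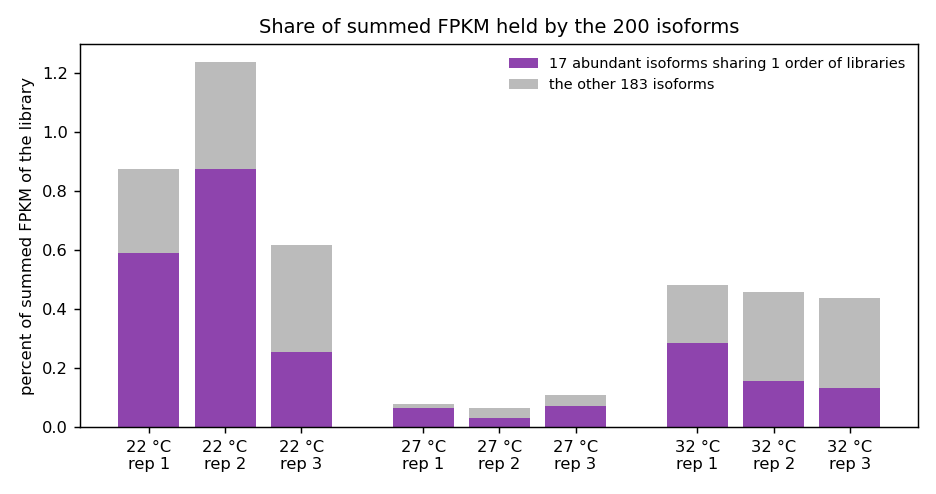
Percent of each library's summed FPKM held by the 200 isoforms, with the 17 abundant isoforms of shared order (purple) and the other 183 (grey) stacked. The 3 totals at 32 °C run from 0.438 to 0.481% with different purple parts, and those at 22 °C from 0.618 to 1.24%.

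Whether the isoforms stood at the same level at 32 as at 22 °C is the comparison whose direction the rule leaves free. In limma's moderated test over all 101114 isoforms, 2 of the 200 were called lower and 0 higher at 32 than at 22 °C (Benjamini-Hochberg adjusted p below 0.05). That is 1.0% of the 200, against 1.70% of all isoforms tested, 0.789% lower and 0.908% higher. At an unadjusted p below 0.05 limma found 40 of the 200, or 20%, against 16.5% of all tested. These shares are near the background. The median standard error was 0.580 for the 200 and 0.345 for all isoforms tested.

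Both isoforms called lower at 32 °C were of low abundance. The isoform ranked 65 by upper minus lower step stood at 4, 3.32 and 4.81 FPKM in the 32 °C libraries, against 8.2, 10.11 and 10.5 FPKM in the 22 °C libraries. Its log2(FPKM + 1) difference was -1.08 with a standard error of 0.193 (adjusted p = 0.0406, limma). The isoform ranked 108 stood at 2.33, 0.5 and 1.35 FPKM in the 32 °C libraries, against 13.42, 25.34 and 5.99 FPKM in the 22 °C libraries. Its log2(FPKM + 1) difference was -2.61 with a standard error of 0.489 (adjusted p = 0.0457, limma). In both, every 32 °C library lay below every 22 °C library. The calls held in 3 and 4 of 18 alternative settings, in which the adjusted p ran from 0.0243 to 0.237 and from 0.0346 to 0.159 (limma). Neither was called without replicate 1 or 2 at 22 °C, any 1 library at 27 °C or any 1 library at 32 °C, and the isoform ranked 65 was also lost without replicate 3 at 22 °C. Nor was either called with only the 32 and 22 °C libraries fitted (adjusted p = 0.111 and 0.123, limma). At 27 °C the isoforms stood at 0, 0.2 and 0 FPKM and at 0, 0.33 and 0 FPKM. The main fit pools that small spread with those of 22 and 32 °C.

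By direction alone, more of the 200 stood lower than higher at 32 than at 22 °C, 125 against 75. That is 62.5% lower, against 42.2% of all isoforms tested. The median log2(FPKM + 1) difference was -0.33, against 0.10 over all isoforms tested, and after median-of-ratios scaling it was -0.50 against -0.02. The difference was within 1 in either direction in 142 isoforms, -1 or lower in 46 and 1 or higher in 12. The 142 are 71.0% of the 200, against 85.5% of all isoforms tested that lay within 1. In FPKM the 32 °C mean was a median of 81.9% of the 22 °C mean, with a range of 9.34 to 460%. Without replicate 1 at 32 °C the counts became 114 lower and 86 higher, and the median difference -0.09, against 0.13 over all isoforms tested.

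Separation of the libraries was likewise uneven. All 3 libraries at 32 °C lay below all 3 at 22 °C in 38 isoforms, or 19.0%, against 8.31% of all isoforms tested. They lay above all 3 in 14 isoforms, or 7.00%, against 14.8%. Groups without overlap in either direction thus made up 26.0% of the 200, against 23.1% of all tested, and the 200 held more of the lower and fewer of the higher kind. Of the 38, 9 belonged to the 17 abundant isoforms.

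The lower level at 32 °C was most marked in the most abundant class, and both classes below it had similar medians. Among the 28 isoforms averaging 50 FPKM or more, 27 stood lower and 1 higher at 32 than at 22 °C, with a median log2(FPKM + 1) difference of -1.56, against -0.02 for the 2707 tested isoforms of that abundance. The 1 higher was isoform_44559. At 10 to 50 FPKM, 36 of 60 stood lower, with a median of -0.21, against 0.04 for tested isoforms. At 2 to 10 FPKM, 62 of 112 stood lower, with a median of -0.18, against 0.11 for tested isoforms. Of the tested isoforms in these classes, from most to least abundant, 51.6, 47.6 and 41.8% stood lower. Leaving out the 17, 108 of the other 183 stood lower with a median of -0.22, and 10 of the remaining 11 of at least 50 FPKM stood lower with a median of -0.74.

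In all 17 abundant isoforms of shared order the 32 °C mean was below the 22 °C mean. It was a median of 30.0% of the 22 °C mean, with a range of 17.6 to 38.4%, and the 27 °C mean was a median of 8.94% of it. The log2(FPKM + 1) difference of 32 and 22 °C had a median of -1.75 and ran from -2.58 to -1.20. None of the 17 passed (adjusted p from 0.0867 to 0.817, limma), and 13 had an unadjusted p below 0.05, as had 16.5% of all isoforms tested. With only the 32 and 22 °C libraries in the fit, limma also called 0, and 15 had an unadjusted p below 0.05, as had 15467 of all 101114 tested. The 13 became 7 without replicate 1 and 5 without replicate 2 at 22 °C, and 6 without replicate 2 and 7 without replicate 3 at 32 °C. Their libraries overlapped in 8 of the 17, where replicate 1 at 32 °C lay above replicate 3 at 22 °C. With 1 library left out, the median difference ran from -2.26 without replicate 3 at 22 °C, where limma called 1 of the 17 lower, to -1.41 without replicate 2 at 22 °C, and all 17 differences stayed below 0.

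**Figure D5:**
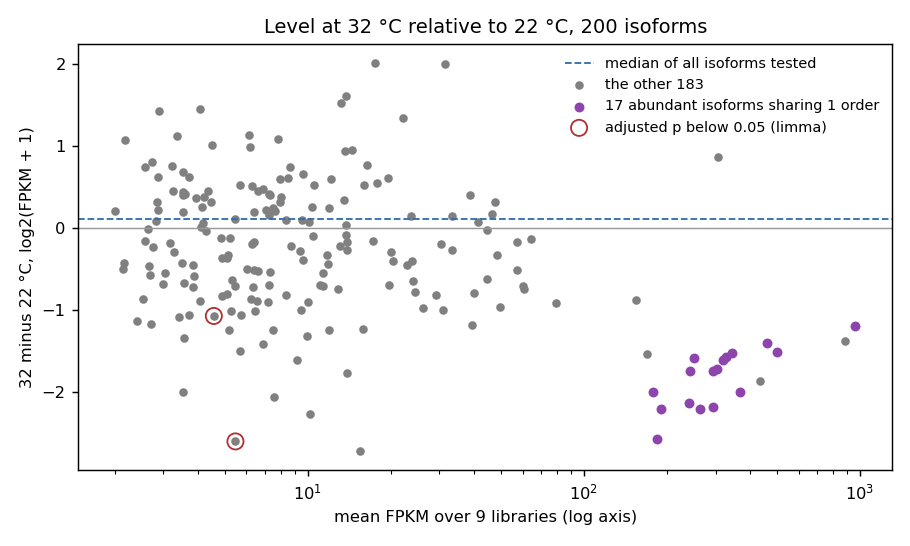
Difference of 32 minus 22 °C in log2(FPKM + 1) for the 200 isoforms against their mean FPKM over 9 libraries (log axis); purple marks the 17 abundant isoforms of shared order, open circles the 2 isoforms called by limma, and the dashed line the median of 0.10 over all isoforms tested. The purple points lie between -2.58 and -1.20, and below 50 FPKM the points scatter on both sides of 0.

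A smaller number stood well above their 22 °C level at 32 °C, and limma called none of the 200 higher. Under other settings it called 4 higher after rescaling to TPM, 2 with replicate 1 at 27 °C left out and 1 with replicate 1 at 32 °C left out. Over all isoforms tested the same settings called 1195 of 70816, 627 of 97143 and 433 of 97626 higher. The isoform ranked 74 stood at 34.29, 36.78 and 49.56 FPKM in the 32 °C libraries, against 9.61, 11.44 and 6.85 FPKM in the 22 °C libraries, with 0, 5.29 and 3.96 FPKM in the 27 °C libraries. The isoform ranked 21 stood at 39.04, 30.76 and 19.71 FPKM in the 32 °C libraries, against 14.92, 6.39 and 8.3 FPKM in the 22 °C libraries, and was at 0 in every 27 °C library. In both, every 32 °C library lay above every 22 °C library. The isoform ranked 55 stood at 82.7, 4.91 and 12.26 FPKM in the 32 °C libraries, against 17.23, 1.37 and 4.3 FPKM in the 22 °C libraries, so its high mean rested on replicate 1 at 32 °C.

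Within 32 °C, replicate 1 was the lowest of the 3 libraries in 102 of the 200 isoforms, or 51.0%, against 38.0% of all isoforms tested. Its log2(FPKM + 1) value lay a median of 0.44 below the mean of the other 32 °C libraries in the 200, a difference of -0.44, against -0.07 over all isoforms tested. In those 102 isoforms replicate 1 was thus the 32 °C library closest to the 27 °C level. It was the highest of its group in 59 of the 200, among them, by their choice, the 17 abundant isoforms. At 22 °C replicates 1, 2 and 3 were the lowest in 57, 72 and 71 of the 200.

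The comparisons that chose the isoforms are given for completeness, and nothing is read from them. In the same limma fit 54 of the 200 were called lower at 27 than at 22 °C, where 0.316% of all tested isoforms were. For 32 against 27 °C 25 were called higher, where 0.0722% of all tested isoforms were. The upper minus lower step was called above 0 in 35, where 0.0702% of all tested isoforms were. Both steps were called in 24 isoforms and neither in 145. Of the 54, 25 were isoforms at 0 in every 27 °C library, as were 17 of the 25.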

How the data were processed

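Eyestalk RNA was extracted with Trizol, and DNBSEQ sequencing was used, per the labels' protocols. It was available as FPKM values deposited by the authors, per the file headers, with 2 decimals and 1 column per library. The submitters' processing notes name Bowtie2 and RSEM without versions. For their settings, transcript set, genome build and filters: not given in the sources used here. Read depth is unknown, so no counting interval is given. Columns were assigned by library name and 0 were left unused. No identifier of the 267789 matched the gene table (0 matches).

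The members and all groupings were chosen with earlier results of these data known. The named isoforms are the 2 with the highest mean over 22 and 32 °C and, of the others, the 2 with the largest upper step minus lower step. Two-sided tests on log2(FPKM + 1) used limma 3.58.1 (R 4.3.3) over 101114 isoforms with at least 1 FPKM in 3 libraries. All 9 libraries entered 1 fit with a variance trend (prior degrees of freedom 1.98), and p-values were Benjamini-Hochberg adjusted over all isoforms. The fit was tested on simulated data. Replicate numbers were not treated as pairs. Alternatives covered pseudocount, filter, scaling, variance model, libraries fitted, a replicate block and each library left out. No sequences of the isoforms were used here.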

Additional observations from a re-analysis of the deposited data

How the results depend on the processing

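The rule found 842 isoforms with a pseudocount of 0.1, 310 with a minimum of 5 FPKM and 298 after rescaling to TPM, against 489, and 597 to 1066 with 1 library left out. It found 1054 without replicate 1 at 32 °C, 1066 without replicate 2 and 1049 without replicate 3 at 27 °C. Of the 200 isoforms, 185 to 200 still met it under these scalings and pseudocount and with a library left out, and 172 with a minimum of 5 FPKM. The 200 kept without replicate 1 at 32 °C shared 63 with those described, and those without replicate 2 or 3 at 27 °C shared 93 and 103.

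For 32 against 22 °C limma called 0 of the 200 with a pseudocount of 0.1, with no filter, with a minimum of 5 FPKM and with the replicate block, where 25, 40, 28 and 34 had an unadjusted p below 0.05. Over all isoforms tested those numbers were 16407 of 101114, 25486 of 250450, 6718 of 34606 and 15750 of 101114. Limma called 6 after rescaling to TPM (4 higher), 4 after median-of-ratios scaling (all lower), 1 with robust variances and 1 with only the libraries of both temperatures fitted, and 0 to 3 with a library left out. Those 3 were 2 higher and 1 lower without replicate 1 at 27 °C, and the 1 call made without replicate 1 at 32 °C was higher. Over all isoforms, TPM gave 1195 higher and 578 lower of 70816, and median-of-ratios scaling 701 and 1080 of 99295. Robust variances gave 841 higher and 742 lower of 101114, and only both temperatures fitted gave 272 and 316. Leaving out replicate 1 at 27 °C gave 627 higher and 601 lower of 97143. The median difference of the 200 was -0.12 after rescaling to TPM and -0.413 to -0.088 with a library left out, and below 0 in all 18 alternatives.

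For 27 against 22 °C the calls numbered 33 with no filter, 14 with the replicate block and 16 to 70 with a library left out. For 32 against 27 °C they numbered 38 with a pseudocount of 0.1, 14 with a minimum of 5 FPKM, 6 with the replicate block, 14 with only both temperatures fitted and 12 to 31 with a library left out. For the upper step minus the lower step they numbered 23 after rescaling to TPM, 15 with the replicate block and 18 to 51 with a library left out. All were in the direction set by the rule. The causes of these shifts were not tested. The replicate numbers did not pair the libraries: deviations of same-numbered libraries correlated at -0.019 to 0.052 over 9 pairs. The 32 minus 22 °C difference of the 4 isoforms given by identifier kept its direction and stayed without a call in all 18 alternatives. The share of the 22 abundant isoforms with 1 order of libraries, tried after seeing the data, was 18 of 28 at a minimum mean of 50 FPKM. Depth is unknown, and values near 0 at 27 °C limit every fold there.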
